A study of Homo sapiens with 120 samples.

Results

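The 37 genes described here are direct transcriptional targets of the tumour suppressor p53, chosen by name with earlier results of these data known. They are 37 of the 62703 genes in the deposited table, and each of the 37 passed the filter on low counts in both arms of the study. By role, the list holds 8 genes of the cell cycle and growth arrest (CDKN1A, BTG2, PLK2, PLK3, CCNG1, GADD45A, ZMAT3 and GDF15) and 13 genes of apoptosis (BBC3, BAX, FAS, TNFRSF10A, TNFRSF10B, APAF1, PIDD1, AEN, EDA2R, CYFIP2, PHLDA3, NINJ1 and TP53I3). A further 4 genes act in DNA repair and nucleotide supply (XPC, DDB2, POLH and RRM2B), and 7 in metabolism, redox balance and survival (SESN1, TIGAR, FDXR, SPATA18, TRIAP1, RPS27L and SUSD6). The last 6 feed back on p53 itself (MDM2, PPM1D, CCNG1, FBXO22, TP53INP1 and PURPL), CCNG1 being counted in both roles.

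All 120 libraries hold polyadenylated RNA of H1 cells, a long-established line of human embryonic stem cells. In the differentiation arm, WT cells and the edited KO and ΔATG lines of a study of the long noncoding RNA lncPRESS1 (gene LNCPRESS1) were sampled at day 0 and on days 1 to 5 of 3 protocols, namely BMP4 towards mesoderm, SMADi towards neuroectoderm and the Endo kit towards definitive endoderm. This gave 96 libraries in 48 groups of 2. In the overexpression arm, H1 cells carried a vector, lncPRESS1, lncPRESS1DATG or lncSIRP and were collected at early, middle and late stages, which gave 24 libraries in 12 groups of 2. The labels do not spell out the edits or give the number of clones, the sequence of lncSIRP, the days behind the stages, or whether the paired libraries a and b came from separate cultures.

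The p53 protein binds response elements near its target genes as a tetramer and raises their transcription after DNA damage or other stress. MDM2, itself a target, is the ubiquitin ligase that returns p53 to a low level, and CDKN1A encodes p21, the inhibitor of cyclin-dependent kinases through which p53 halts the cell cycle. Human embryonic stem cells hold p53 at low activity while pluripotent, and p53 becomes active as they leave that state. LNCPRESS1 was described as a pluripotency RNA that p53 represses and that binds the deacetylase SIRT6.

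The elements that p53 recognises are shown first for the members whose promoter holds one. Of the 6 members that fell most often below, PURPL and FDXR hold a full match and SESN1 a single element, CDKN1A holds neither in the window searched, and GADD45A and PHLDA3 were not searched. RefSeq promoters (build GRCh38.p14, 250 bases before to 50 bases after a start of transcription) were found for 30 of the 37 members, as 43 entries, and FBXO22, GADD45A, PHLDA3, RRM2B, TNFRSF10A, TNFRSF10B and TP53INP1 were not searched. A full p53 response element was searched on both strands as 2 single elements of 10 bases each, with a spacer of up to 13 bases between them and at most 2 mismatches to the consensus. Such a match lay in 7 of the 43 member entries (16.3%), belonging to 6 members, and in 2.93% of all 35116 promoters. A match without mismatch lay in 2 member entries, those of PURPL and DDB2, and in 10 of all promoters (0.0285%). Capitals mark the matched bases, and lower case marks flanking or spacer bases.
PURPL: gcccaGGGCTTGTCTGGGCATGCCCacagt
DDB2: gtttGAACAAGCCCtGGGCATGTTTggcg
AEN: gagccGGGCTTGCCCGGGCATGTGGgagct
FAS: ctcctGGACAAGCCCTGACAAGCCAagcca
FDXR: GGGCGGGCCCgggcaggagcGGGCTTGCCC
MDM2: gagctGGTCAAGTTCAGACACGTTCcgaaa
The PURPL match covers chr5:27472165-27472184 on GRCh38.p14 and begins at position -127 from the start of transcription, between genes in the GENCODE 29 annotation, with no spacer. That of DDB2 covers chr11:47214979-47214999, begins at position 5 within the first exon and has a spacer of 1 base. AEN (chr15:88621306-88621325, exonic) and FAS (chr10:88991309-88991328, in an exon of FAS and of the overlapping gene ACTA2) have no spacer. In FDXR (chr17:74872996-74873025, exonic, minus strand) 10 bases separate the single elements, and the MDM2 match (chr12:68808923-68808942) lies in an intron of that gene. A single element of 10 bases without mismatch lay in 8 of the 43 member entries (18.6%) and in 6.63% of all promoters. PLK2, RPS27L and SESN1 are members with such an element and no full match.
PLK2: ggacaAGACTTGCTTcccgg
RPS27L: agagcAGACAAGCCCgcccc
SESN1: cgtctGGACAAGTCTccaca
Of the members that were lower most often, PURPL lies at chr5:27472292-27496401 (a long intergenic noncoding RNA gene), CDKN1A at chr6:36676460-36687339, FDXR at chr17:74862497-74873031, SESN1 at chr6:108986437-109094819, and GADD45A and PHLDA3 at chr1:67685061-67688338 and chr1:201464383-201469237 (GRCh38, GENCODE 29). The sequences above are matches of letters within the windows searched, and binding was not measured here.

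Totals per library lay between 38298600 and 71219800 estimated counts in the differentiation arm and between 40113900 and 65466600 in the overexpression arm. The targeted RNA, LNCPRESS1, measured 21.4 and 40.6 CPM (the count scaled to a library total common to all libraries) in the WT libraries at day 0, 13.2 and 5.60 in KO (log2 fold change -1.70 ± 0.22) and 53.1 and 35.2 in ΔATG, so that the KO libraries were lower but not at 0. With SMADi it was lower in both KO (-3.47 ± 0.23) and ΔATG (-3.61 ± 0.29). With BMP4 both KO libraries lay below both WT libraries on 5 of 5 days. Both ΔATG libraries did so on 2 days and lay above on 1. With Endo neither line lay below WT on any day, and both libraries lay above it on 1 of 5 days in KO and 2 in ΔATG. In the overexpression arm the early libraries labelled lncPRESS1 held 32.3 and 53.8 CPM, near the vector (29 and 30.2), and those labelled lncSIRP held 185 and 133. The middle libraries labelled lncPRESS1 and lncSIRP had little SOX2, a pluripotency factor, at 3.28 and 4.07 CPM with lncPRESS1 and 5.42 and 5.23 with lncSIRP, against 256 and 254 with vector. Directions drawn from early and middle stages therefore refer to libraries as labelled. The pluripotent markers summed to 3955 to 4214 CPM in WT and 3921 to 4152 in ΔATG at day 0, and none of the 8 passed the test. Of 8 neuroectoderm markers 3 were lower there in ΔATG, and their part was not tested.

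At day 0, p53 targets were lower in ΔATG than in WT and none was higher. Of the 37 members 12 fell (3.20% of all 25821 genes tested were lower), 0 rose (2.30% of all genes were higher) and 25 were not called at an adjusted p under 0.05, and the median log2 fold change over the 37 was -0.39. In every comparison used here the median over all genes tested lay between -0.05 and 0.02. The falls comprised 6 of 13 apoptosis genes, 2 of 8 cell cycle genes, 2 of 7 genes of metabolism and survival, 1 of 4 repair genes and 1 of 6 feedback genes.
PURPL, a long noncoding RNA reported to restrain p53, fell furthest. It measured 9.26 and 9.83 CPM in WT and 2.40 and 4.23 in ΔATG, a log2 fold change of -1.55 ± 0.18 (SE; adjusted p = 1.03e-08). Both ΔATG libraries lay below both WT libraries. CDKN1A, with a fitted change of -1.40, measured 21.5 and 10.7 CPM in WT and 5.11 and 7.17 in ΔATG. The 2 WT libraries of CDKN1A stood further from each other than the lower of them stood above the ΔATG libraries. BAX, the pore-forming effector of mitochondrial apoptosis, measured 119.6 and 99.5 against 67.3 and 77.5 CPM (-0.60 ± 0.10, adjusted p = 7.35e-05). EDA2R, a member of the TNF receptor family, measured 10.4 and 7.01 against 4.90 and 4.30 CPM (-0.91 ± 0.17). The groups of both genes did not overlap. PHLDA3, an inhibitor of AKT signalling, measured 27.5 and 19.3 against 12.8 and 14 CPM (-0.81 ± 0.21), and the TRAIL receptor TNFRSF10B 106 and 77.1 against 69.5 and 62.4 (-0.48 ± 0.10). The repair factor DDB2 (-0.45 ± 0.12), the mitochondrial reductase FDXR (-0.49 ± 0.10) and the stress protein SESN1 (-0.52 ± 0.16) also fell. MDM2 showed a gap between libraries rather than between lines: library a and library b held 101 and 38.4 CPM in WT, 87.5 and 39.4 in KO and 66.4 and 39.6 in ΔATG, and its log2 fold change of -0.39 ± 0.34 was not called. These calls rest on a spread pooled over the 96 libraries of the arm: in an edgeR fit of only the 4 libraries compared, 0 of 37 members and 2 of 21040 genes passed, and 11 members were lower and 0 higher at an unadjusted p under 0.05. Without WT library a 2 members were lower, CDKN1A and PURPL (the remaining WT library was taken to vary like the other groups), and with the libraries paired by letter 20 were lower. With 1 of the 4 libraries left out, CDKN1A and PURPL kept their calls in 4 of 4 fits, BAX, EDA2R and TNFRSF10B in 3, AEN, BTG2, DDB2, FDXR and PHLDA3 in 2, SESN1 in 1 and BBC3 in 0.

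**Figure D1:**
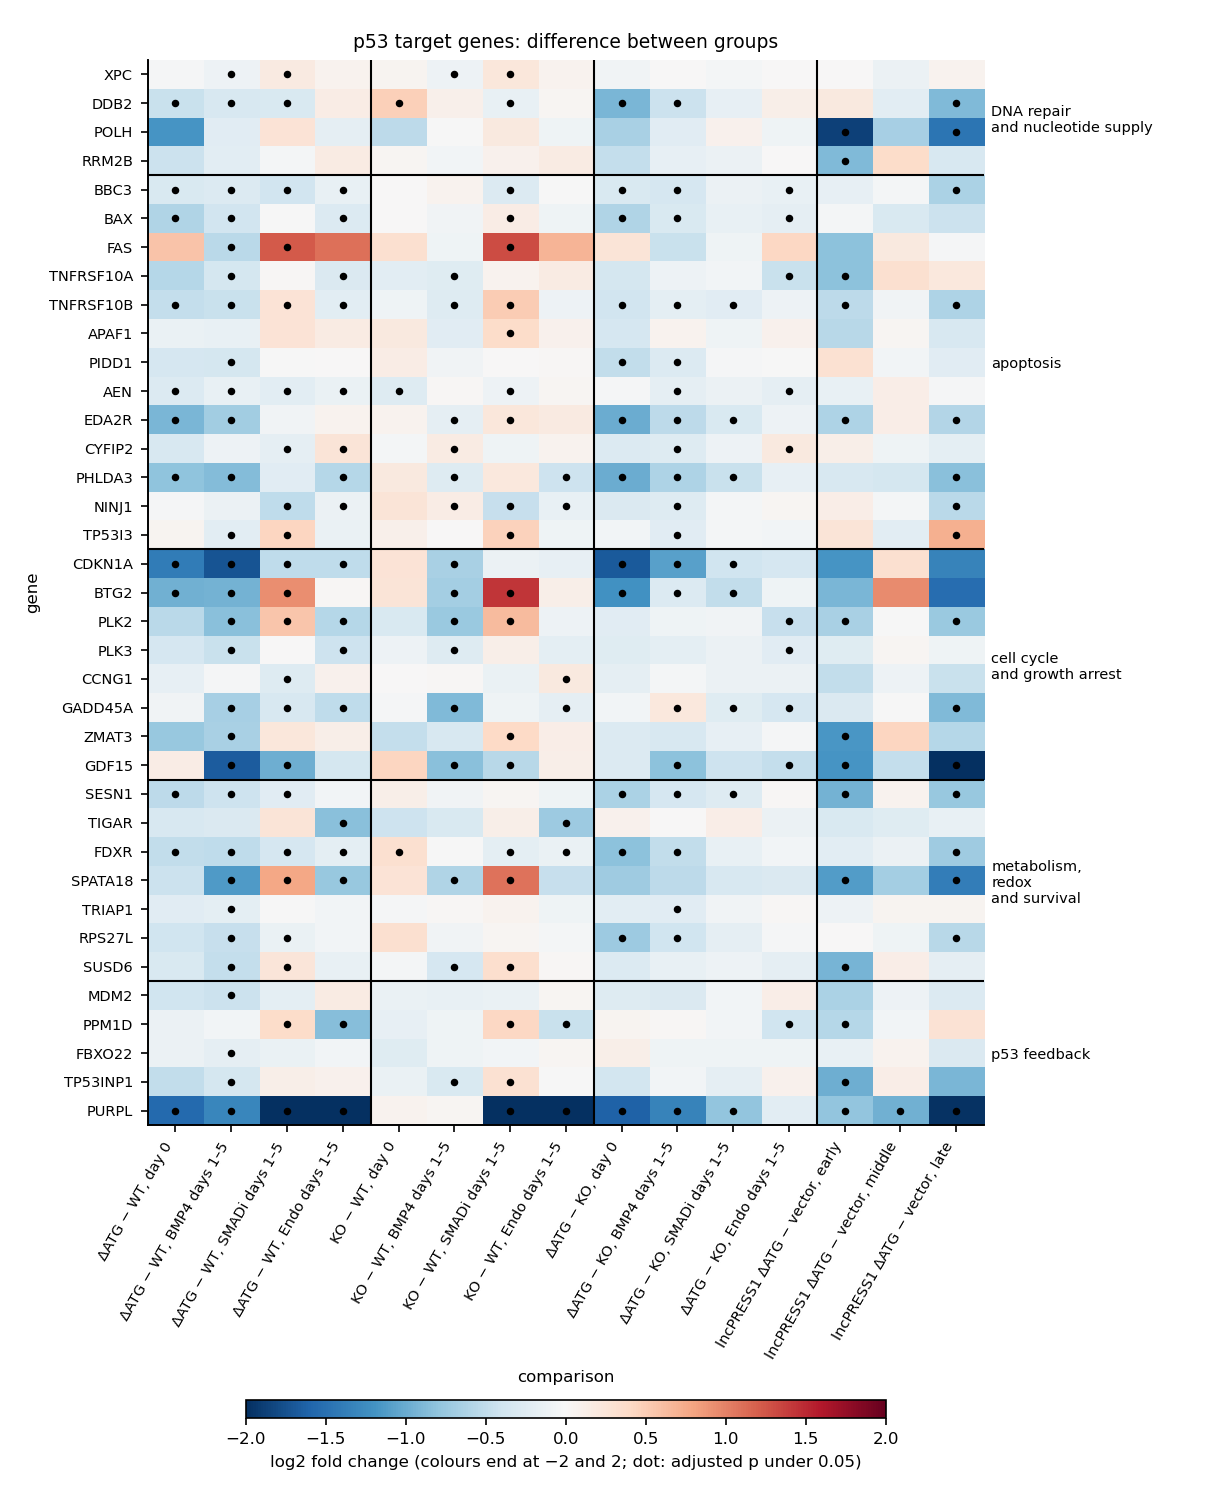
Log2 fold change of the 37 p53 targets (rows, grouped by role, CCNG1 shown once) in ΔATG and KO cells against WT, ΔATG against KO, and the lncPRESS1DATG construct against vector at each stage (columns). Dots mark an adjusted p under 0.05. The BMP4 column of ΔATG against WT holds 29 dots, each on a negative value, whereas the SMADi column holds 13 negative and 9 positive dots.

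With BMP4, p53 targets were again lower in ΔATG than in WT. Over days 1 to 5, 29 of 37 members were lower (8.78% of all genes tested were lower) and 0 were higher (8.19% of all genes), with a median of -0.38, and each of the 37 had a negative log2 fold change. The falls took in 7 of 8 cell cycle genes, 6 of 7 of metabolism and survival, 10 of 13 of apoptosis, 4 of 6 of feedback and 2 of 4 of repair. On single days, 4 members were lower on day 1 (0.666% of all genes lower) and 24 on day 5 (6.86%), and 0 were higher on either day (0.263% and 4.25% of all genes).
CDKN1A fell furthest, with both ΔATG libraries below both WT libraries on 5 of 5 days. On day 2 it measured 13.7 and 13.3 CPM in WT and 4.84 and 4.21 in ΔATG, and on day 4 74.9 and 69.3 against 21.2 and 20.8. GDF15, a secreted stress cytokine, measured 3.47 and 3.27 CPM in WT and 1.60 and 1.67 in ΔATG on day 1, and 52.5 and 71.7 against 12 and 10.4 on day 5. For GDF15, too, the lines did not overlap on any of the 5 days. SPATA18, a regulator of mitochondrial quality, fell by 1.14 on the log2 scale (adjusted p = 1.42e-05) at levels of 0.963 to 6.55 (median 3.55) CPM over the 10 WT libraries and 0.394 to 3.23 (median 1.43) over the 10 ΔATG libraries. The antiproliferative gene BTG2 (-0.95 ± 0.07), the stress kinase PLK2 (-0.83 ± 0.07), the cell cycle brake GADD45A (-0.67 ± 0.05) and the splicing regulator ZMAT3 (-0.64 ± 0.13) fell as well. Among apoptosis genes the deepest falls were PHLDA3 (-0.87 ± 0.09), EDA2R (-0.70 ± 0.07) and the death receptor FAS (-0.53 ± 0.17). The 8 members that did not pass the test were CCNG1, NINJ1, CYFIP2, APAF1, POLH, RRM2B, TIGAR and PPM1D, with log2 fold changes from -0.29 to -0.02.
In the same libraries, markers of primitive streak and mesoderm were lower in ΔATG for 10 of 10 genes, with sums of 190 to 504 CPM in ΔATG and 273 to 874 in WT. There 7 of 8 endoderm markers were lower and 5 of 8 pluripotent markers were higher. Of 8 neuroectoderm markers 1 was lower and 3 higher, and of 8 amnion and trophoblast markers 4 were lower and 1 higher. In bulk RNA, fewer cells of a type and less RNA per cell cannot be told apart, and the part of the marker change in the fall of the p53 targets was not tested.

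**Figure D2:**
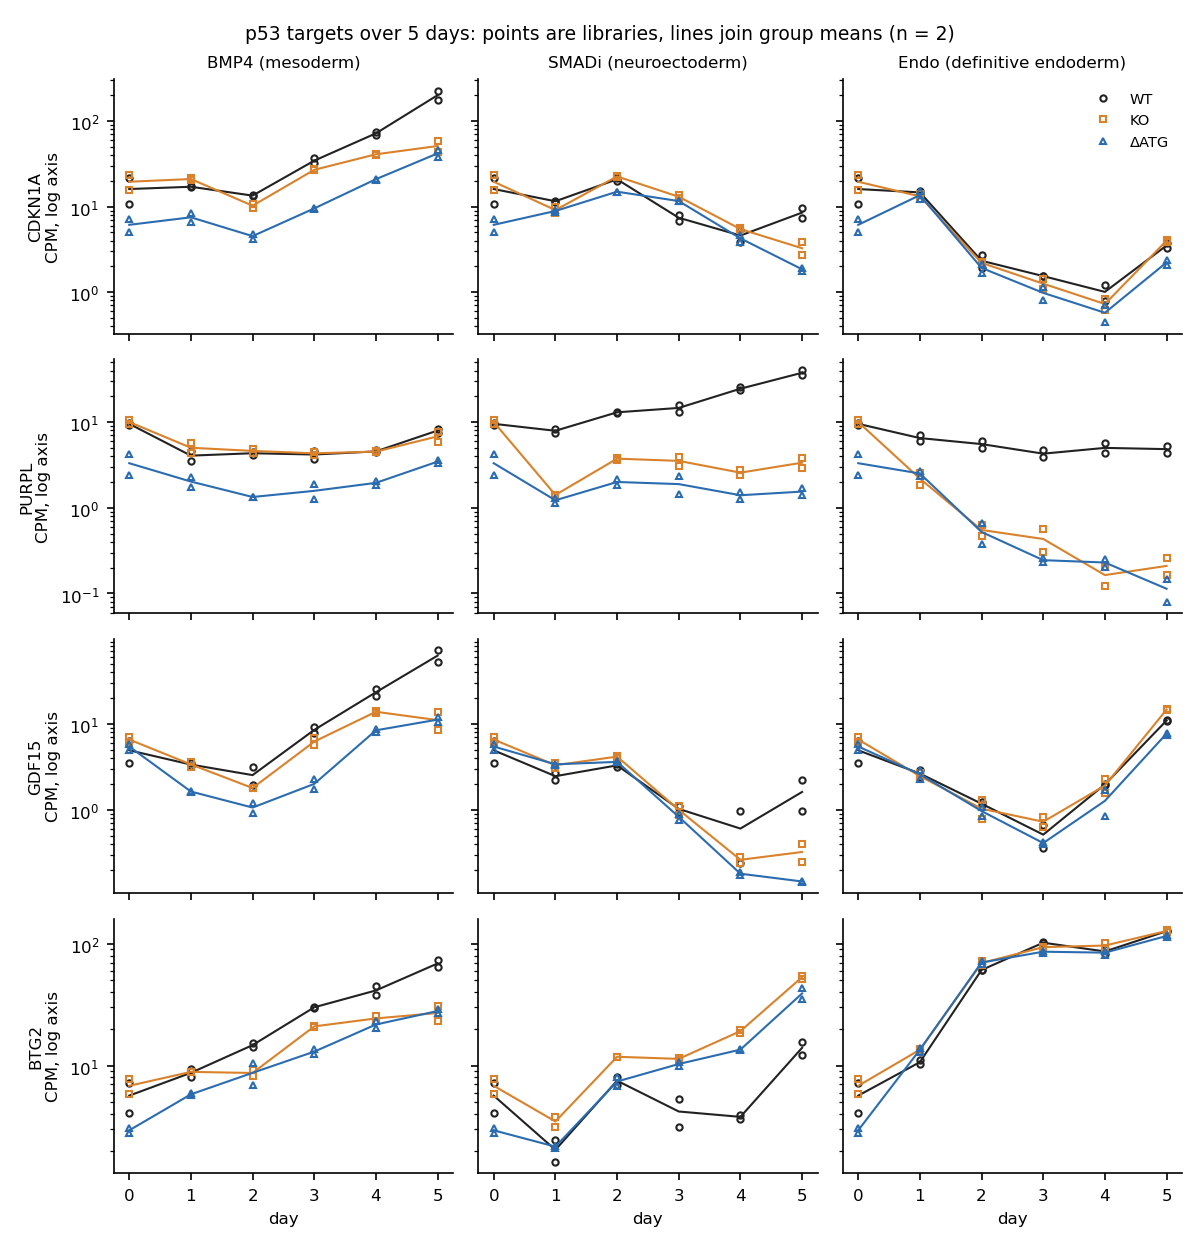
CPM of CDKN1A, PURPL, GDF15 and BTG2 (rows, log axes) against day for the 3 protocols (columns), with points for single libraries of WT, KO and ΔATG and lines through the means of 2 libraries. With BMP4 both ΔATG libraries of CDKN1A and GDF15 lie below both WT libraries on 5 of 5 days, and both KO libraries on 4 of 5. PURPL separates both edited lines from WT with SMADi and Endo. With SMADi BTG2 lies above WT on 5 of 5 days in KO and on 3 of 5 in ΔATG.

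With SMADi the members moved both ways. In ΔATG 13 of 37 were lower than in WT (24.3% of all genes tested were lower) and 9 were higher (20.9% of all genes) with a median of -0.01. The members' shares, 35.1% lower and 24.3% higher, were each within 1.5 times the share of all genes. The lower members included PURPL (-3.41 ± 0.09), GDF15 (-0.98 ± 0.22), CDKN1A (-0.50 ± 0.10), the membrane rupture protein NINJ1 (-0.50 ± 0.04) and the BH3-only gene BBC3 (-0.38 ± 0.04). The higher members included FAS (1.22 ± 0.12), BTG2 (0.93 ± 0.09), SPATA18 (0.77 ± 0.19), PLK2 (0.55 ± 0.11), the quinone reductase TP53I3 (0.43 ± 0.06) and the p53 phosphatase PPM1D (0.37 ± 0.07).
The direction depended on the day. On day 3, 2 members were lower (15.1% of all genes) and 16 higher (13.3%), and on day 5, 15 were lower (18.4%) and 4 higher (13.8%). TNFRSF10B measured 60.3 and 59.9 CPM in WT and 104 and 104 in ΔATG on day 3, and 89.1 and 83.4 against 64.4 and 64 on day 5. BAX measured 61.8 and 66.9 against 88.2 and 86.8 on day 3, and 44.9 and 48 against 36.7 and 38.3 on day 5. For both genes the lines did not overlap on either day, and their order was reversed between the days. CDKN1A was higher in ΔATG on day 3 (8.01 and 6.85 CPM in WT, 11.7 and 11.5 in ΔATG) and lower on day 5 (9.69 and 7.37 against 1.76 and 1.95). FAS was higher in ΔATG on 5 of 5 days, at 4.14 to 11.4 (median 6.27) CPM against 1.84 to 6.42 (median 2.53) in WT. FAS overlaps ACTA2 on the other strand, and since the strand setting of the counting is not given, reads of the 2 genes cannot be told apart. Over days 1 and 2 alone, a comparison chosen after the data were seen, 9 members were lower and 6 higher. The shares of all genes were not counted for those days. GDF15 stood at 0.29 (adjusted p = 0.301) and BBC3 at 0.02 (0.893) there, both on the other side of 0 from their values over 5 days, BTG2 at 0.03 (0.964) and GADD45A at -0.04 (0.843).
Beside these values, 5 of 8 pluripotent markers were lower and 1 higher in ΔATG over the protocol, 6 of 10 streak and mesoderm markers were lower and 0 higher, and 3 of 8 neuroectoderm markers were lower and 4 higher. Their part in the changes was not tested.

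With the Endo protocol 16 of 37 members were lower in ΔATG (17.2% of all genes tested were lower) and 1 was higher (16.6% of all genes), with a median of -0.14. Falls were seen in 7 of 13 apoptosis genes, 4 of 8 cell cycle genes, 3 of 7 of metabolism and survival, 2 of 6 of feedback and 0 of 4 of repair. PURPL fell furthest. On day 5 it measured 4.39 and 5.28 CPM in WT and 0.0799 and 0.147 in ΔATG (-3.75 ± 0.14 over the 5 days, adjusted p = 1.43e-29). PPM1D rose in WT to 86 and 72.1 CPM on day 5 and stood at 30.5 and 31.6 in ΔATG (-0.85 ± 0.07). Both ΔATG libraries of PPM1D lay below both WT libraries on 4 of 5 days. GADD45A lay below WT in both ΔATG libraries on 5 of 5 days, from 49 and 43 against 23.5 and 26.8 CPM on day 1 to 85.1 and 83.9 against 72.9 and 72.7 on day 5. TIGAR, a phosphatase that slows glycolysis, was lower over the protocol (-0.83 ± 0.16), most on day 2 with 12.2 and 12.6 CPM in WT, 1.40 and 1.92 in ΔATG and 1.81 and 2.03 in KO. The TIGAR libraries of 1 group can differ widely, as in WT on day 3 of SMADi (2.54 and 16.2 CPM). The member that was higher was CYFIP2 (0.25 ± 0.06). CDKN1A, at -0.51 over the 5 days, lost its call without WT library a of day 4 (adjusted p = 0.0519).
Streak and mesoderm markers were lower in ΔATG here also, for 9 of 10 genes, as were 5 of 8 endoderm markers, with 2 of 8 higher, and their part was not tested.

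The difference between ΔATG and WT varied between the 3 protocols for 30 of 37 members in a joint test (48.1% of all genes varied). In 10 members the calls were opposite in 2 protocols: BTG2, PLK2, PPM1D, FAS, TNFRSF10B, CYFIP2, TP53I3, XPC, SPATA18 and SUSD6. Of these, 8 were lower with BMP4 and higher with SMADi. BTG2 had the smallest joint p of these, at -0.95 ± 0.07 with BMP4, 0.93 ± 0.09 with SMADi and 0.03 ± 0.06 with Endo (joint adjusted p = 8.85e-21), although on days 1 and 2 of SMADi alone it did not pass. The 6 members lower in all 3 protocols were PURPL, CDKN1A, GADD45A, FDXR, BBC3 and AEN, of which GADD45A and BBC3 did not pass on days 1 and 2 of SMADi alone. Only APAF1, RRM2B and POLH were lower in none of the 3. The shares of all genes called in opposite directions, or lower in all 3 or in none, were not counted. Within a protocol the difference varied between days for 2 members with BMP4, PLK2 and GDF15 (2.27% of all genes varied), for 24 with SMADi (29.5%) and for 8 with Endo (16.2%).

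In KO cells the members did not follow ΔATG at day 0. There 1 was lower than in WT (3.03% of all genes tested) and 2 were higher (1.86%), with a median of 0.01. The nuclease gene AEN was lower (-0.26 ± 0.07), and DDB2 (0.47 ± 0.12) and FDXR (0.33 ± 0.09) were higher. CDKN1A measured 15.8 and 23.3 CPM and PURPL 9.51 and 10.5 in KO, and neither was called.
With BMP4 14 members were lower in KO (15.4%) and 2 higher (13.3%), the median being -0.09. The falls took in 6 of 8 cell cycle genes, 4 of 13 of apoptosis, 2 of 7 of metabolism and survival, 1 of 4 of repair and 1 of 6 of feedback. The cell cycle genes were CDKN1A (-0.65 ± 0.08), BTG2 (-0.67 ± 0.07), PLK2 (-0.74 ± 0.07), PLK3 (-0.26 ± 0.07), GADD45A (-0.89 ± 0.05) and GDF15 (-0.84 ± 0.10). The others were SPATA18, SUSD6, TP53INP1, PHLDA3, TNFRSF10B, TNFRSF10A, EDA2R and XPC, with log2 fold changes from -0.61 to -0.10. With 1 library left out, EDA2R kept its call in 9 of 20 fits and TP53INP1 in 11 of 20. On day 5 CDKN1A measured 43.6 and 59 CPM in KO, 45.9 and 38.1 in ΔATG and 175 and 228 in WT, whereas on day 1 KO held 20.6 and 21.5 and WT 16.9 and 17.3. Streak and mesoderm markers were lower in KO for 10 of 10 genes (104 to 288 CPM summed, against 273 to 874 in WT). Amnion and trophoblast markers were lower for 7 of 8 and higher for 1, as were endoderm markers. Of 8 pluripotent markers 6 were higher, and of 8 neuroectoderm markers 1 was lower and 3 higher. The part of these markers was not tested. PURPL did not differ between KO and WT with BMP4 beyond the spread (0.04 ± 0.08, adjusted p = 0.811), with values of 4.13 to 7.73 (median 4.55) and 3.56 to 8.41 (median 4.54) CPM.
With SMADi 7 members were lower in KO (24.6%) and 14 higher (21%), with a median of 0.08. BTG2 was higher, at 54.6 and 51.7 CPM in KO on day 5 against 15.8 and 12.2 in WT (1.42 ± 0.08 over the 5 days), and PURPL was lower, at 2.95 and 3.77 against 35.2 and 40.1 (-2.61 ± 0.08). With Endo 7 were lower (8.04%) and 1 higher (6.76%), with a median of 0.00. The falls included PURPL (-3.53 ± 0.13), TIGAR (-0.72 ± 0.16) and PPM1D (-0.45 ± 0.07). Beside these values, with SMADi 5 of 8 pluripotent markers were lower in KO and 1 higher, and 6 of 10 streak and mesoderm markers were lower. Of 8 neuroectoderm markers 3 were lower and 4 higher there. With Endo 7 of 10 streak and mesoderm markers were lower in KO. The part of these markers was not tested. CCNG1, a cyclin that directs a phosphatase to MDM2, was the higher member (0.20 ± 0.06), a call lost without WT library a of day 1, 4 or 5, WT library b of day 2, KO library a of day 2 or KO library b of day 1. The comparisons of KO and of ΔATG with WT use the same WT libraries, so their values stand side by side and were not correlated. None of the 3 calls at day 0 passed in a fit of only the 4 libraries compared, and AEN lost its call without WT library a or KO library b. The higher values of DDB2 and FDXR lost theirs without WT library b or KO library b, and that of FDXR also without WT library a.

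ΔATG against KO compares the edited lines with each other and leaves out WT. At day 0, 13 members were lower in ΔATG (1.91% of all genes tested) and 0 higher (2.15%), with a median of -0.30. With BMP4 19 were lower (4.92%) and 1 higher (8.67%), with SMADi 8 lower (0.472%) and 0 higher (0.593%), and with Endo 9 lower (9.65%) and 1 higher (8.71%). With SMADi few genes of the whole table separated the edited lines, and the 8 members were PURPL (-0.80 ± 0.11), BTG2 (-0.49 ± 0.08), PHLDA3 (-0.44 ± 0.11), CDKN1A (-0.39 ± 0.10), EDA2R (-0.30 ± 0.07), SESN1 (-0.26 ± 0.07), GADD45A (-0.24 ± 0.05) and TNFRSF10B (-0.23 ± 0.05). With BMP4 10 of 13 apoptosis genes were lower in ΔATG than in KO. GADD45A was the member that was higher (0.22 ± 0.05), and with Endo the higher member was CYFIP2 (0.19 ± 0.06). The call of GADD45A was lost without ΔATG library a of day 2 (adjusted p = 0.0538) and in a fit of only the libraries compared (0.121). With SMADi CDKN1A kept its call in 12 of 20 fits that left out 1 library, and SESN1 in 8 of 20. That of CYFIP2 was lost without ΔATG library a of day 2, 4 or 5, ΔATG library b of day 3, KO library a of day 3 or KO library b of day 5. In fits of only the libraries compared, 0 members passed at day 0 (12 lower and 0 higher at an unadjusted p under 0.05, with 3 of 21017 genes called). With SMADi 16 were lower in such a fit, for which the share of all genes was not counted. At day 0, 8 were lower without KO library b or ΔATG library a, and with SMADi 5 were lower without KO library a of day 1 or day 5 or ΔATG library b of day 5.

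PURPL, CDKN1A and FDXR were lower in ΔATG at day 0, in ΔATG in each of the 3 protocols and with the lncPRESS1DATG construct. With the construct, the calls of CDKN1A and FDXR were lost under DESeq2 size factors and in a fit of only the libraries compared. They were also lost on leaving out any 1 of most of the 12 libraries compared. At day 0 FDXR and PHLDA3 lost their calls without WT library a (adjusted p = 0.118 and 0.507) or ΔATG library a (0.0827 and 0.123), and SESN1 lost its call without the filter on low counts (0.0571) and without WT library a or either ΔATG library. PHLDA3, GADD45A, SESN1, BAX, BBC3, TNFRSF10B and AEN were lower in 4 of these 5 comparisons, which have no library in common, although the first 4 compare the same lines. In its remaining comparison, SMADi, TNFRSF10B was called higher (0.27), whereas the others of this list were not called in theirs. For BBC3 and AEN 1 of the 4 is day 0, where leaving out 1 library kept the call of BBC3 in 0 of 4 fits and of AEN in 2 of 4. For BAX 1 of the 4 is the construct, where its call was kept in 3 of 12 such fits and in 2 of 8 other settings. RRM2B, a subunit of ribonucleotide reductase, and APAF1, the core of the apoptosome, were lower in 0 of the 5. The share of all genes lower in as many of the 5 was not counted. PURPL had the deepest fall of the 37 at day 0, with SMADi and with Endo. With SMADi it rose in WT to 35.2 and 40.1 CPM on day 5 and stood at 1.39 and 1.70 in ΔATG. With BMP4 it was low in ΔATG, at 1.27 to 3.61 (median 1.88) CPM, and not in KO. FDXR moved less, at 19.5 to 38.2 (median 26.7) CPM in ΔATG and 24.6 to 71.9 (median 39.2) in WT with BMP4, with both ΔATG libraries below both WT libraries on 5 of 5 days of BMP4, 4 of SMADi and 3 of Endo. PHLDA3 lay lower in both ΔATG libraries on 5 of 5 days of BMP4, from 22.5 and 21.9 against 11.3 and 13 CPM on day 1 to 57.1 and 62.1 against 28.8 and 27.2 on day 5. SESN1 measured 38.8 and 37.9 CPM in WT and 23.9 and 22.9 in ΔATG on day 5 of BMP4, and 10.1 and 11.7 against 10.7 and 10.7 on day 5 of Endo, where the lines overlapped.

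In the overexpression arm 16 of 37 members were lower with the lncPRESS1DATG construct than with vector over the 3 stages (14.5% of all 23300 genes tested were lower) and 1 was higher (11.3%), with a median of -0.30. By stage, 14 were lower and 0 higher early (15.0% and 11.3% of all genes), 1 and 0 in the middle (4.20% and 3.15%) and 15 and 1 late (11.1% and 10.0%). PURPL was lower at each stage, at 23.7 and 23.2 CPM with vector and 12.3 and 14.9 with the construct early, 18.4 and 18.2 against 8.51 and 10.3 in the middle, and 21.6 and 20.3 against 5.87 and 4.78 late (-1.24 ± 0.07 over the stages, adjusted p = 2.64e-09). GDF15 measured 8.81 and 6.15 CPM with vector and 1.48 and 1.33 with the construct at the late stage (-2.41 ± 0.37). For both genes the groups did not overlap at any stage. SPATA18 (-1.06 ± 0.18), CDKN1A (-0.73 ± 0.26), SESN1 (-0.55 ± 0.11), PHLDA3 (-0.50 ± 0.09) and the translesion polymerase gene POLH (-1.33 ± 0.27) were also lower over the stages. TP53I3 was the higher member, 17.2 and 17.9 CPM with vector and 29.2 and 28.2 with the construct late (0.71 ± 0.12). The paired libraries of this construct disagreed in places: early MDM2 measured 22.4 and 114 CPM and middle CDKN1A 32.8 and 9.57, with vector at 103 and 109 for MDM2 and 13.1 and 20.8 for CDKN1A. The difference from vector varied between stages for 15 of 37 members (16.4% of all genes varied). At the late stage 8 of 14 genes of the integrated stress response, a pathway that also raises GDF15, were lower with the construct and 0 were higher. Definitive endoderm markers were lower with the construct for 7 of 8 genes early, 8 in the middle and 8 late (4.90 to 4.95 CPM summed late, against 56.9 to 61.4 with vector), and streak and mesoderm markers for 4, 5 and 7 of 10 (8.79 to 9.07 late, against 48.1 to 55.6). The part of these gene groups was not tested. The count over the stages was 10 without middle vector library b, late vector library a or late lncPRESS1DATG library b. The calls of CDKN1A and FDXR over the stages were lost under DESeq2 size factors (adjusted p = 0.0560 and 0.0543) and on leaving out any 1 of most of the 12 libraries compared.

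**Figure D3:**
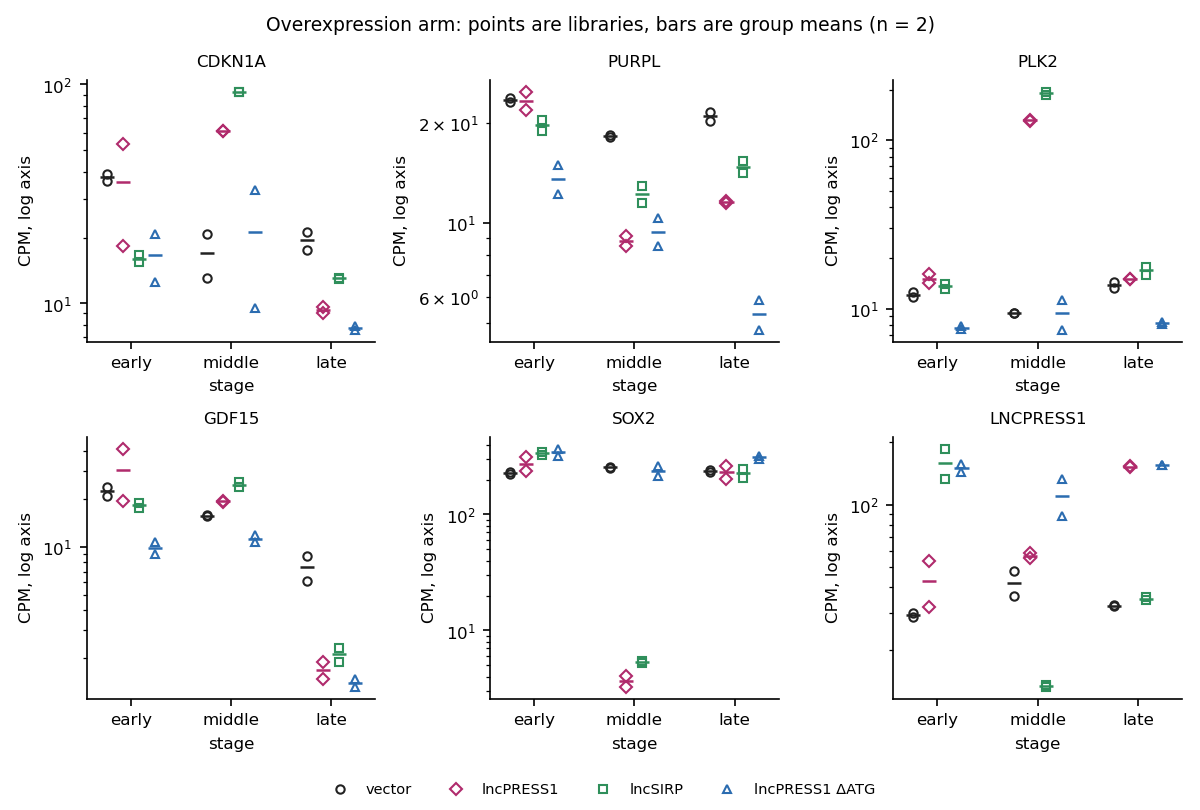
CPM (log axes) of 4 p53 targets, the pluripotency factor SOX2 and LNCPRESS1 in the overexpression arm by stage, with points for single libraries and bars for the means of 2. The middle libraries labelled lncPRESS1 and lncSIRP stand apart with low SOX2 and high PLK2 and CDKN1A, and the lncPRESS1DATG libraries lie lowest for PURPL at the late stage.

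The libraries labelled lncPRESS1 gave 6 lower and 12 higher members against vector over the stages (24.4% and 21.4% of all genes), and those labelled lncSIRP gave 8 lower and 15 higher (26.4% and 23.8%). Most higher calls came from the middle stage, with 5 lower and 24 higher members in either set of libraries (28.9% and 29.3% of all genes for lncPRESS1, 29.8% and 30.6% for lncSIRP), the stage at which SOX2 was low. PLK2 there measured 133 and 130.5 CPM with lncPRESS1, 194 and 186 with lncSIRP and 9.38 and 9.39 with vector, and CDKN1A 61.6 and 61.5 with lncPRESS1, 91.9 and 92.5 with lncSIRP and 13.1 and 20.8 with vector. Fibroblast markers summed to 5387 to 5522 CPM in the middle lncPRESS1 libraries, 7020 to 7294 in lncSIRP and 253 to 262 with vector, and streak and mesoderm markers to 1445 to 1494, 1201 to 1223 and 38.8 to 45.6. Their part in the rise of the targets was not tested.
At the late stage, where LNCPRESS1 was higher in libraries labelled lncPRESS1 (153 and 151 CPM) and lncPRESS1DATG (154 and 156) against 32.9 and 32.6 with vector, lncPRESS1 gave 10 lower and 1 higher members (11.6% and 11.0%) and lncSIRP 5 lower and 2 higher (10.7% and 10.7%). GDF15 was lower than with vector with both, at 1.48 and 1.89 CPM with lncPRESS1 and 1.91 and 2.33 with lncSIRP, as was PURPL, at 11.6 and 11.5 with lncPRESS1 and 14.1 and 15.4 with lncSIRP. TP53I3 was higher with both (0.91 ± 0.12 and 0.96 ± 0.12). These comparisons share the vector libraries. Set directly against lncPRESS1, the lncPRESS1DATG construct was lower for 25 members over the stages (23.3% of all genes) and higher for 0 (22.7%). That count takes in the middle lncPRESS1 libraries with low SOX2. By stage, 16 were lower and 0 higher early (9.98% and 6.88%), and 25 lower and 5 higher in the middle (30.3% and 28.6%). At the late stage 4 were lower and 2 higher (10.8% and 11.7%). EDA2R, MDM2, PPM1D, TNFRSF10A, TP53INP1 and ZMAT3, called lower over the stages, had positive values late that were not called. Late PURPL was lower with lncPRESS1DATG than with lncPRESS1 (-1.12 ± 0.14, adjusted p = 2.83e-05). The count lower with lncPRESS1 over the stages was 1 without early vector library b, 2 without early lncPRESS1 library b, middle vector library b or late vector library a, and 3 without middle or late lncPRESS1 library a. That with lncSIRP was 4 without late vector library a and 5 without early or middle vector library b or late lncSIRP library a, and over the early and late stages alone it was 14.

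During differentiation of WT cells 25 of the 37 members rose by day 5 of BMP4, whereas with SMADi and Endo their rises stood near the share of all genes. From day 0 to day 5 of BMP4 these 25 rose (22.9% of all genes tested were higher) and 0 fell (22.2% were lower), with a median of 0.72. The rises took in 7 of 8 cell cycle genes (median 3.08), 8 of 13 of apoptosis, 6 of 7 of metabolism and survival, 3 of 4 of repair and 1 of 6 of feedback. GDF15 went from 3.52 and 6.34 to 52.5 and 71.7 CPM (3.66 ± 0.19, adjusted p = 6.5e-23) and CDKN1A from 21.5 and 10.7 to 175 and 228 (3.64 ± 0.18), a ratio of means of 12.5. The rise of CDKN1A came after day 2, at which it measured 13.7 and 13.3 CPM. BTG2 (3.60 ± 0.16), PLK2 (3.18 ± 0.17) and GADD45A (2.99 ± 0.12) rose as well. The feedback gene that rose was TP53INP1, a stress-induced autophagy factor (0.83 ± 0.25), whereas MDM2 (0.25 ± 0.33), PPM1D (-0.00 ± 0.17) and PURPL (-0.27 ± 0.16) were not called. In the same comparison markers of streak and mesoderm rose for 10 of 10 genes and those of amnion and trophoblast for 7 of 8, with 1 lower, and their part was not tested.
With SMADi 9 members, or 24.3%, rose (26.8% of all genes) and 15, or 40.5%, fell (26.7%), with a median of -0.19. PURPL (1.98 ± 0.14) and GADD45A (1.88 ± 0.12, 9.40 and 10.6 to 36.7 and 36.8 CPM) rose. The TRAIL receptor TNFRSF10A fell to 0.510 and 0.406 CPM from 6.33 and 3.81 (-3.47 ± 0.29), and PHLDA3 fell to 5.14 and 4.53 from 27.5 and 19.3 (-2.28 ± 0.24). With Endo 12, or 32.4%, rose (31.2% of all genes) and 16, or 43.2%, fell (32.2%), with a median of -0.08. BTG2 rose to 126 and 127 CPM (4.48 ± 0.16) and GADD45A to 85.1 and 83.9 (3.08 ± 0.12). FAS, at 2.62 and 2.28 CPM on day 0, measured 0.0399 and 0 on day 5, which is 2 counts in all against 285 and a level 123-fold lower (95% exact counting interval 33.7 to 1020). EDA2R fell to 1.36 and 1.14 from 10.4 and 7.01 (-2.80 ± 0.21), and CDKN1A fell to 3.77 and 3.27 (-2.20 ± 0.22). BTG2, GADD45A, SPATA18 and TP53INP1 rose in each protocol, though all 3 comparisons share the day 0 libraries. The share of all genes that rose in each protocol was not counted. With 1 library left out, the SMADi rise of SPATA18 was kept in 1 of 4 fits and the BMP4 rise of TP53INP1 in 2 of 4. With SMADi 5 members rose when WT library b of day 0 was left out.

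**Figure D4:**
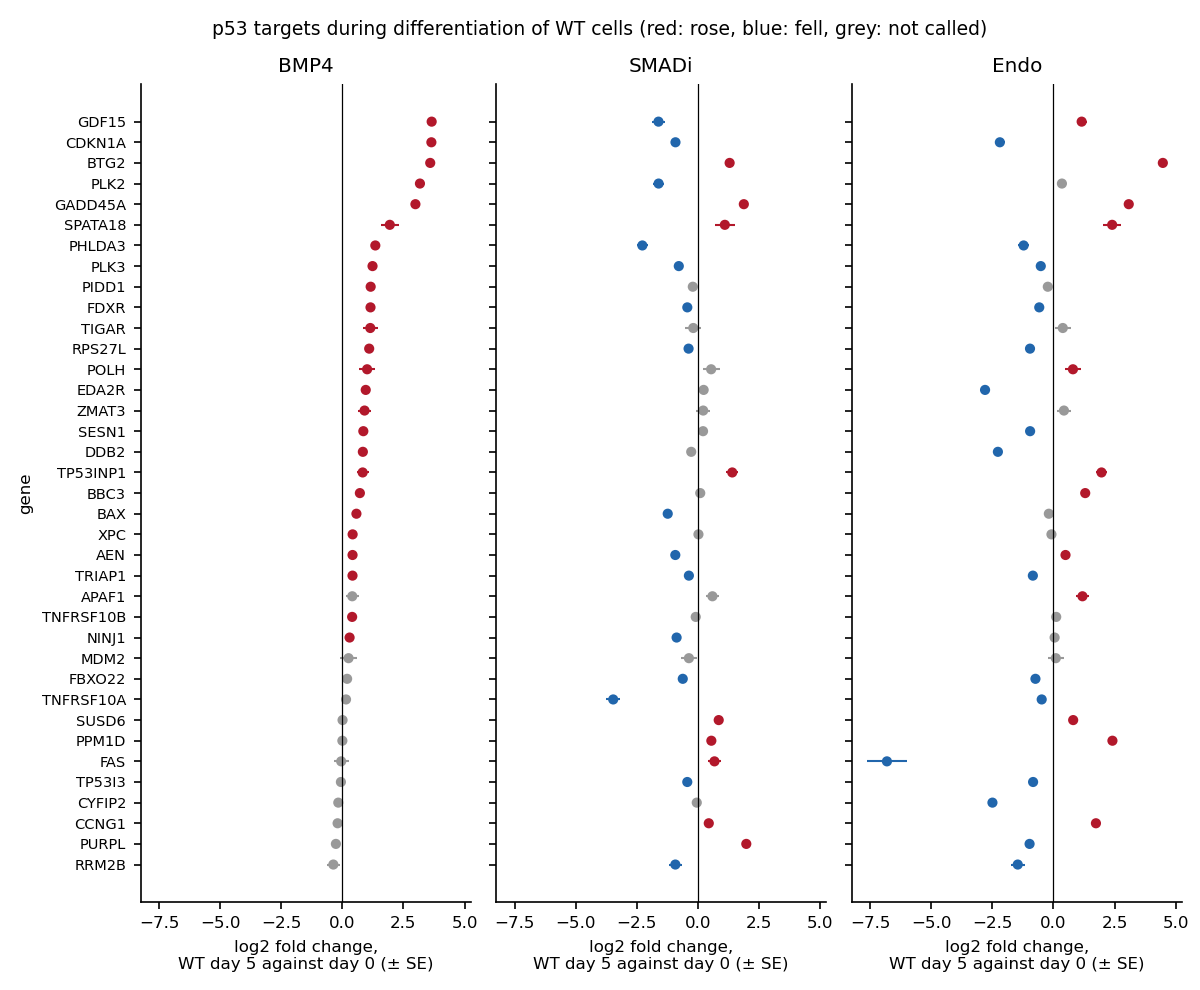
Log2 fold change of each p53 target from day 0 to day 5 in WT cells (x axis, with SE) for the 3 protocols, genes ordered by the BMP4 value. With BMP4 25 points are red for a rise and 0 blue for a fall, while SMADi has 9 red and 15 blue and Endo 12 red and 16 blue. The FAS point for Endo rests on 2 counts at day 5, and its position depends on the prior count of the fit.

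The edited lines raised targets with BMP4 also. In ΔATG 23 members rose (21.8% of all genes) and 2 fell (20.7%) from day 0 to day 5, and in KO 17 rose (19.8%) and 2 fell (19.2%). CDKN1A changed by 2.79 ± 0.19 in ΔATG, 1.39 ± 0.17 in KO and 3.64 ± 0.18 in WT, and GDF15 by 1.04 ± 0.20, 0.73 ± 0.20 and 3.66 ± 0.19. The change from day 0 to day 5 was lower in ΔATG than in WT for 3 of 37 members with BMP4 (2.41% of all genes) and higher for 0 (2.42%). These 3 were CDKN1A (-0.86 ± 0.25, adjusted p = 0.0355), GADD45A (-0.86 ± 0.16, adjusted p = 0.000381) and GDF15 (-2.62 ± 0.28, adjusted p = 7.31e-09). With SMADi it was lower for 6 members (13.2% of all genes) and higher for 5 (8.29%). PURPL, which rose in WT, changed by -1.05 ± 0.24 in ΔATG, a difference of -3.03 ± 0.27, and GDF15 by -5.19 ± 0.45, a difference of -3.57 ± 0.63. BTG2 rose by 3.74 ± 0.18 in ΔATG and 1.30 ± 0.17 in WT, a difference of 2.44 ± 0.25. With Endo the change was lower for PURPL (-3.87 ± 0.48) and PPM1D (-1.23 ± 0.23), 2 of 37 (4.41%), and higher for BTG2 (0.82 ± 0.24), PIDD1 (0.77 ± 0.17) and DDB2 (0.57 ± 0.19), 3 of 37 (5.52%).

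The remaining members are described by role, from ΔATG against WT. Among the feedback genes MDM2 was called lower with BMP4 (-0.44 ± 0.15), a call kept in 9 of 20 fits that left out 1 library, and its 2 libraries differed on days 1 to 3 in every line, as on day 3 with 124 and 54.1 CPM in WT and 82.8 and 42.5 in ΔATG. FBXO22, which encodes a ubiquitin ligase subunit, was lower with BMP4 (-0.18 ± 0.06). TP53INP1 was lower with BMP4 (-0.35 ± 0.11, kept in 13 of 20 such fits) and measured 44.7 and 46.1 CPM in WT and 74.6 and 71.4 in ΔATG on day 5 of SMADi. CCNG1 was lower with SMADi (-0.26 ± 0.06). In WT with Endo, CCNG1 rose by 1.74 ± 0.15 and TP53INP1 by 1.97 ± 0.25.
Of the repair genes, XPC, which detects distorted DNA, was lower with BMP4 (-0.10 ± 0.03) and higher with SMADi (0.18 ± 0.03), at 41.9 to 50.2 (median 46.2) CPM in WT and 47.1 to 58.2 (median 52.8) in ΔATG. DDB2, the damage sensor with the full element shown above, was lower with BMP4 (-0.32 ± 0.05) and SMADi (-0.31 ± 0.06). In WT it fell with Endo, from 64.7 and 54.4 to 11.7 and 12.9 CPM. POLH was not called in ΔATG in any protocol. RRM2B fell in WT with SMADi (-0.92 ± 0.28, a call lost without WT library a of day 0) and Endo (-1.46 ± 0.29), while its values in ΔATG against WT ran from -0.43 at day 0 to 0.16 with Endo, none called.
Of the genes of metabolism and survival, TRIAP1, a small protein that blocks apoptosome formation, was lower with BMP4 (-0.20 ± 0.03). RPS27L, a ribosomal protein paralogue, was lower with BMP4 (-0.46 ± 0.06) and SMADi (-0.14 ± 0.06), where its call was kept in 4 of 20 fits that left out 1 library and 3 of 7 other settings. It measured 71.1 and 91.7 CPM in WT and 55.1 and 54.4 in ΔATG on day 5 of BMP4. Reads of RPS27L could be shared with its paralogue RPS27. SUSD6 was lower with BMP4 (-0.48 ± 0.07) and higher with SMADi (0.24 ± 0.06). SPATA18 measured 4.93 and 6.55 against 3.06 and 1.56 CPM on day 5 of BMP4 and 2.19 and 1.97 against 5.68 and 5.47 on day 4 of SMADi, so that the lines stood in opposite order.
Of the apoptosis genes not yet given, PIDD1, a scaffold of the PIDDosome, was lower with BMP4 (-0.36 ± 0.05) and TNFRSF10A with BMP4 (-0.34 ± 0.09) and Endo (-0.28 ± 0.10, a call lost without WT library b of day 4). NINJ1 was lower with SMADi (-0.50 ± 0.04) and Endo (-0.12 ± 0.04), the Endo call being kept in 9 of 20 fits that left out 1 library, and CYFIP2, a partner of the WAVE actin complex, was lower with SMADi (-0.18 ± 0.05). TP53I3 was lower with BMP4 (-0.22 ± 0.06). APAF1 was not called in ΔATG at day 0 or in any protocol, with values from -0.15 to 0.28. BBC3 measured 35.7 and 33 CPM in WT and 15.2 and 16.4 in ΔATG on day 5 of SMADi, and AEN 72.6 and 73 against 34.8 and 34.5, with no overlap for either gene. Among cell cycle genes PLK3 was lower with BMP4 (-0.45 ± 0.07) and Endo (-0.42 ± 0.08), and ZMAT3 measured 21 and 19.2 against 10.7 and 9.34 CPM on day 5 of BMP4.

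Of 28 further reported p53 targets outside the 37, 6 were lower and 1 higher in ΔATG at day 0 (3.20% of all genes lower, 2.30% higher), 10 and 2 with BMP4 (8.78% and 8.19%), 14 and 6 with SMADi (24.3% and 20.9%), and 5 and 10 with Endo (17.2% and 16.6%), the share lower with Endo standing near that of all genes. Those lower at day 0 were TNFRSF10C (-1.06), SFN (-1.0), IER5 (-0.58), TNFRSF10D (-0.51), PML (-0.42) and TRAF4 (-0.23). Of 20 cell cycle genes that p21 restrains through the DREAM repressor complex, 2 were lower and 0 higher at day 0, and 2 were lower and 4 higher with BMP4. In the integrated stress response, 0 of 14 genes were lower and 8 higher at day 0 in ΔATG, and 1 was lower and 3 higher with BMP4. Those values stand beside the day 0 falls, and their part was not tested.

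**Figure D5:**
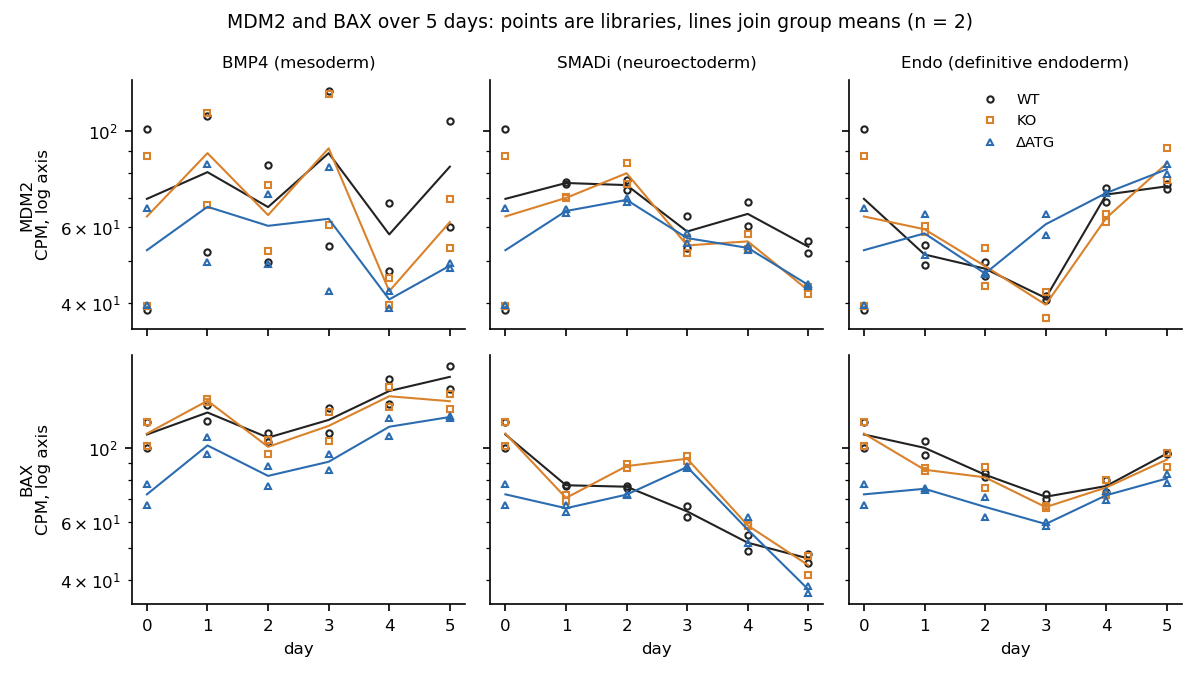
CPM (log axes) of the targets MDM2 and BAX against day in the 3 protocols, with points for single libraries of WT, KO and ΔATG and lines through the means of 2. The 2 MDM2 libraries of a group stand apart at day 0 and on days 1 to 3 of BMP4, and BAX in ΔATG lies above WT on day 3 of SMADi and below it on day 5.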

How the data were processed

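Gene expression was measured by RNA sequencing in 120 libraries of H1 cells, with a stranded polyadenylated-RNA kit per the labels' protocols. The authors deposited estimated counts per gene, scaled for gene length per the name of the table, on build GRCh38 per the submitters' processing notes. The aligner, quantifier and strand setting were not given in the sources used here. Scaled counts need not be whole, so they were rounded.

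Each arm was fitted on its own with 1 mean per group in edgeR 4.0.16 (R 4.3.3) by the quasi-likelihood F test, with TMM scaling, the default filter on low counts and a prior count of 2. P-values were adjusted by Benjamini-Hochberg over all genes tested, 25821 for differentiation and 23300 for overexpression, with calls made at adjusted p values under 0.05. A protocol or construct comparison averages its days or stages with equal weight. Fold changes are given on the log2 scale with the standard error, and CPM values use the TMM-scaled library total. Every group held 2 libraries, a and b. Since the labels do not say that they came from separate cultures, p-values measure the spread between these libraries, which may be technical.

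Values were given for the 6 members called lower in most of 5 comparisons and for the 2 highest and 2 lowest called changes of a comparison. For KO, for ΔATG against KO and for the constructs, those changes were given only in part. Values of other members were examples chosen after they were seen. The members, roles, marker lists and pathway lists were chosen with earlier results of these data known. Libraries with the same letter deviated together from their group means at day 0 (3 of 3 pairs of groups, correlations 0.371 to 0.743 over 13799 genes). They did so also with BMP4 (15 of 15, 0.179 to 0.643). The main fits did not pair the libraries, also at day 0 and with BMP4, and the letters entered only as a block among the alternatives. Alternatives were DESeq2 size factors, the Wald test of DESeq2 1.42.0, limma 3.58.1 with voom, no filter, fits of only the libraries compared, the letters as a block and each library left out. Promoter matches were counted by letters alone in RefSeq windows. The depth of each library limits what low genes can show, and counting intervals cover counting error only.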

Additional observations from a re-analysis of the deposited data

Results flagged for a closer look

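In a joint test, the difference between ΔATG and WT varied in size or direction between the 3 protocols for 30 of 37 members. Of all genes, 48.1% varied in that test. In 10 members the difference was called in opposite directions in 2 protocols, and the share of all genes so called was not counted. The adjusted p of the joint test was 8.85e-21 for BTG2, 2.25e-14 for PPM1D, 1.08e-13 for TNFRSF10B and 1.24e-12 for PLK2. It was 5.61e-10 for FAS, 1.33e-09 for TP53I3, 1.76e-08 for SUSD6, 5.02e-08 for SPATA18, 9.58e-07 for XPC and 2.42e-05 for CYFIP2. BTG2, PLK2, FAS, TNFRSF10B, TP53I3, XPC, SPATA18 and SUSD6 were lower in ΔATG with BMP4 and higher with SMADi, PPM1D was higher with SMADi and lower with Endo, and CYFIP2 was lower with SMADi and higher with Endo.

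Between days the difference varied for 2 members with BMP4 (2.27% of all genes), 24 with SMADi (29.5%) and 8 with Endo (16.2%). Between the stages of the lncPRESS1DATG construct it varied for 15 (16.4%). The change from day 0 to day 5 differed between ΔATG and WT for 3 members with BMP4, 11 with SMADi and 5 with Endo. Of all genes it was lower in ΔATG for 2.41%, 13.2% and 4.41%, in that order, and higher for 2.42%, 8.29% and 5.52%. The protocols share the day 0 libraries in these last comparisons.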

How the results depend on the processing

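The 19 counts of members kept within 1.5 times their value in 112 of 123 other settings and in 230 of 252 fits that left out 1 library. The cause of the moves was not tested unless the setting itself shows it. Shares of all genes called were not counted for these settings, apart from the late stage alone and the day 0 fits of only the libraries compared. Counts from the other settings therefore have no share to stand against. At day 0, fits of only the 4 libraries compared, with fewer libraries to estimate the spread, gave 0 members lower in ΔATG than WT, 0 in KO than WT and 0 in ΔATG than KO, and without the low-count filter KO against WT gave 0. Fitted alone, ΔATG against KO with SMADi gave 16. Among stage choices made after the data were seen, the late stage alone gave 10 lower with lncPRESS1, 5 with lncSIRP and 4 with lncPRESS1DATG against lncPRESS1, and the early and late stages gave 14 with lncSIRP and 11 with lncPRESS1DATG against lncPRESS1. In SMADi days 1 and 2 alone, also chosen after the data were seen, GDF15 in ΔATG against WT turned to 0.29 and BBC3 to 0.02.

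With 1 library left out, the members lower in ΔATG than WT numbered 2 to 17 at day 0, 27 to 29 with BMP4, 12 to 14 with SMADi and 14 to 17 with Endo. In KO against WT they numbered 0 to 1, 10 to 16, 5 to 7 and 5 to 8, and in ΔATG against KO 8 to 12, 19 to 22, 5 to 9 and 7 to 10. Members that rose in WT numbered 20 to 28 with BMP4, 5 to 12 with SMADi and 11 to 16 with Endo. Against vector, 10 to 21 were lower with lncPRESS1DATG, 1 to 9 with lncPRESS1 and 4 to 8 with lncSIRP, and 19 to 25 with lncPRESS1DATG against lncPRESS1. Of the values of single members, 1050 of 1128 kept direction and call when 1 library was left out, and 492 of 526 did so in the other settings.

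With the libraries paired by letter as a block, 20 members were lower in ΔATG than WT at day 0, and no other count moved by over 1.5 times. Libraries of the same letter deviated together at day 0 and with BMP4, a pairing that the main fits left out. Elsewhere they share only a letter: 0 of 15 pairs of groups with SMADi, 1 of 15 with Endo, 0 of 6 early and middle and 4 of 6 late had a correlation over 0.1, with the lowest at -0.388 in the middle stage. Depth limits low members, as FAS in WT on day 5 of Endo, at 2 counts.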

Other observations

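Other gene groups moved apart from the p53 targets in places. In WT cells 17 of 20 cell cycle genes of the DREAM pathway, through which p21 represses cell division genes, were lower on day 5 of Endo than at day 0 and 0 were higher (32.2% and 31.2% of all genes), while CDKN1A was lower as well. With BMP4, where CDKN1A rose, 5 of these 20 were lower and 5 higher, near the share of all genes (22.2% and 22.9%). Of the 28 further reported p53 targets, 7 were lower and 13 higher in WT on day 5 of BMP4, and 16 were lower and 6 higher on day 5 of Endo. In WT with BMP4, 12 of 14 genes of the integrated stress response were lower and 1 higher, against 22.2% and 22.9% of all genes.

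Genes of chromosome 20q11.21, a region often gained in cultured human stem cells and holding the survival gene BCL2L1, showed 1 lower and 2 higher of 10 in ΔATG at day 0 (3.20% and 2.30% of all genes), and 2 lower and 1 higher in KO (3.03% and 1.86%).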
